A study of Drosophila melanogaster with 16 samples.

Results

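The 8 genes described here carry the transcriptional response to 2 insect hormones, the steroid ecdysone and the sesquiterpenoid juvenile hormone: EcR, usp, br, Eip74EF, Eip75B, ftz-f1, Eip93F and Kr-h1. They were taken by name from the 13946 protein-coding genes of the fruit fly Drosophila melanogaster, and every chromatin peak overlapping a gene body or the 1000 bp on either side of it was assigned to that gene. These gene regions held 346 peaks of H3K4me1 at day 10 of adult life and 316 at day 50, and 243 and 230 peaks of H3K27ac. Ecdysone binds a dimer of the nuclear receptors EcR and usp, which switches on a first tier of transcription factors (br, Eip74EF, Eip75B) that in turn regulate later genes. ftz-f1 and Eip93F time and direct the following steps of metamorphosis, and Kr-h1, induced by juvenile hormone through the receptors Met and gce, holds metamorphosis back. Both hormones persist in the adult fly, where ecdysone signalling has been linked to memory, sleep, reproduction and lifespan.

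All flies were wild-type males of the strain w1118, a white-eyed laboratory stock, kept in vials on a 12-hour light cycle, and the tissue was the whole head, a mixture of neurons, glia, photoreceptors, fat body and other cells. For each of 2 histone marks and both ages there was a group of 2 chromatin immunoprecipitation (ChIP) replicates and a group of 2 inputs, which gives 16 samples in 8 groups. H3K4me1, a single methyl group on lysine 4 of histone H3, lies at enhancers and over parts of transcribed genes, and H3K27ac, acetylation of lysine 27, lies at active promoters and enhancers. Each replicate came from 50 mg of heads, digested with micrococcal nuclease and briefly sonicated. The 4 deposited peak lists, 1 for each mark and age, pool both ChIP replicates. Neither library depth nor variation between replicates can therefore be known, no difference between ages could be tested, and the exact binomial intervals given below cover counting error only. In such bulk tissue, fewer cells carrying a mark and less of the mark per cell cannot be told apart.

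The lists held 43871 and 41851 peaks of H3K4me1 at day 10 and day 50, and 26699 and 25439 of H3K27ac. All 5 neuron markers had peaks of both marks at both ages, as did 2 of 4 photoreceptor, 1 of 3 glial and 3 of 3 fat body markers. The glial gene repo had peaks of H3K4me1 alone, over 47.3% of its region at day 10 and 47.8% at day 50. Of 4 testis genes, 1 (can) had H3K27ac peaks, over 1019 bp at day 10 and 363 bp at day 50. H3K4me1 peaks lay in 3 of the 4, all 3 with more covered bases at day 50. They went from 196 to 308 bp in can, from 0 to 35 bp in aly and from 0 to 162 bp in sa.

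The quantity compared throughout is the covered share, the percentage of a gene region that lies under peaks. H3K4me1 covered a smaller share of all 8 hormone response genes at day 50 than at day 10, with a median difference of -2.13 percentage points and a range from -9.50 (Kr-h1) to -0.145 (usp). H3K27ac covered a smaller share of 6 genes and a larger share of 2, br and Kr-h1, with a median difference of -1.65 points and a range from -5.00 (EcR) to 2.36 (Kr-h1). No gene differed by as much as 1.5 times in covered bases in either mark. Among all 10652 gene regions with an H3K4me1 peak at either age, 48% were less covered at day 50 and 51.7% more, and the median difference was 0.15 points. Among the 9171 with an H3K27ac peak, 28.1% were lower and 71.6% higher, with a median of 1.73 points. Differences of at least 1.5 times in covered bases occurred in 13.5% (higher) and 9.99% (lower) of gene regions for H3K4me1, and in 22.7% and 7.81% for H3K27ac. These shares were not counted for long regions alone, so they are not matched to the 8 genes in length.

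Length has to be read beside these counts, because 6 of the 8 regions, all but usp and Kr-h1, span at least 20 kb. Of the 1099 regions of that length with an H3K4me1 peak, 76.7% were less covered at day 50 and 23.3% more, and the median difference was -1.53 points. Of the 991 with an H3K27ac peak, 65.8% were lower and 34.2% higher, with a median of -0.90 points. The 6 long hormone response genes were lower in H3K4me1 in 6 of 6 cases and in H3K27ac in 5 of 6, with medians of -2.13 and -1.65 points, so their direction was the common one among long genes. Of the neuron markers, 4 of 5 were also lower in H3K4me1 at day 50, with covered shares of 4.37% to 53.6% at day 10 and 1.95% to 44.2% at day 50. Of the 4 photoreceptor markers 3 were lower in H3K4me1, from 3.68% to 21.7% at day 10 and 0% to 13.2% at day 50. Both glial markers with a peak were higher, by 0.59 points (repo) and 0.14 points (moody). All 3 fat body markers were higher, with 1.68% to 28.1% at day 10 and 2.21% to 49.7% at day 50. Their differences were 0.54 (apolpp), 3.53 (Lsp2) and 21.6 points (FASN1). In H3K27ac, 3 of 5 neuron markers, 2 of 3 photoreceptor markers with a peak and 2 of 3 fat body markers were lower, and the 1 glial marker with a peak was higher. The 2 lower fat body markers were close to level, at -0.22 (Lsp2) and -0.14 points (apolpp), and FASN1 was higher by 3.17 points. The part of cell type in the differences of the hormone response genes was not tested. The counts of both marks varied with the peak threshold. With peaks of -log10 q of at least 5 alone, 5 genes were higher and 3 lower in H3K27ac at day 50, and 1 was higher and 7 lower in H3K4me1. Of all gene regions, 72.6% and 50.7% were then higher. With the stronger 50% of each list, 2 genes were higher and 6 lower in both marks, against 67.9% of all gene regions higher in H3K27ac and 48.5% in H3K4me1. The H3K27ac count equals that with all peaks, but the 2 higher genes were br and usp, and Kr-h1 was lower.

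**Figure D1:**
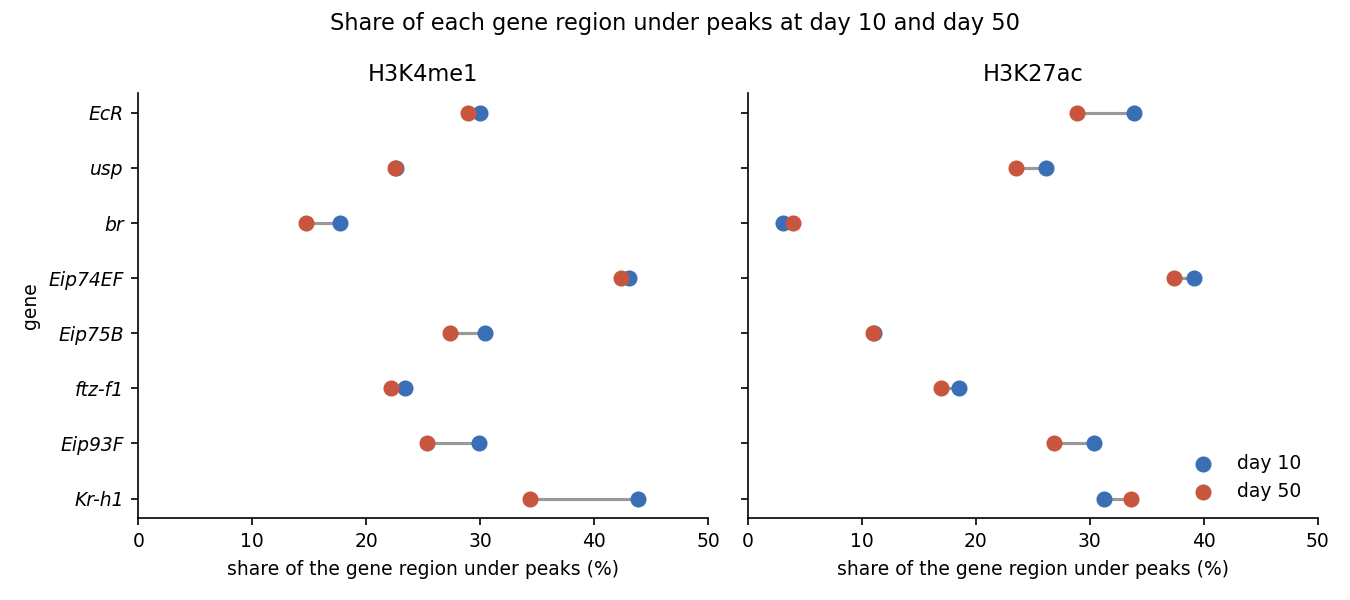
Share of each gene region under peaks (percent, horizontal axis) for the 8 genes (vertical axis) at day 10 (blue) and day 50 (red), H3K4me1 on the left and H3K27ac on the right; each point is 1 pooled peak list, so there are no error bars. All 8 red points lie to the left of the blue ones for H3K4me1, and 6 of 8 do for H3K27ac.

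**Figure D2:**
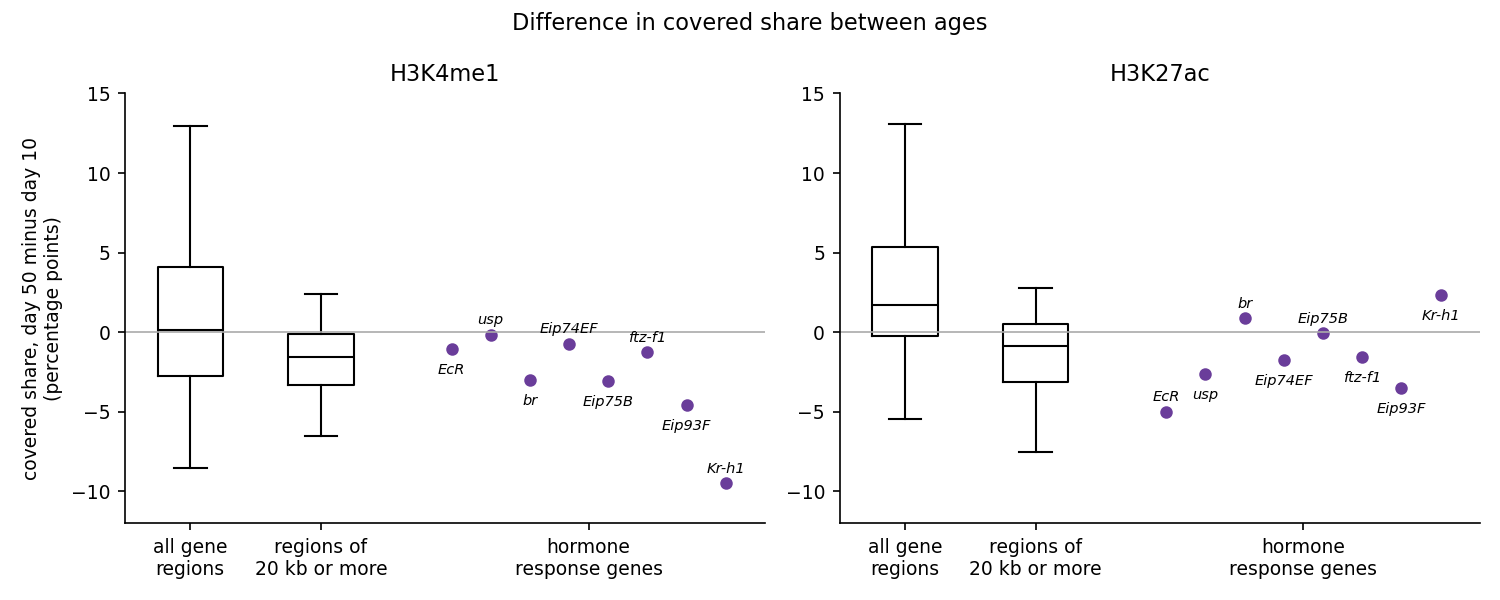
Difference in covered share, day 50 minus day 10 (percentage points, vertical axis), for all gene regions with a peak, for those of 20 kb or more (boxes give the quartiles and the median, whiskers the 5th and 95th percentiles) and for each hormone response gene (points). The medians of the long regions, -1.53 for H3K4me1 and -0.90 for H3K27ac, lie below zero, and of the 8 genes Kr-h1 is lowest in H3K4me1 at -9.50 and highest in H3K27ac at 2.36.

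EcR, the ecdysone receptor itself, occupies 2R:6087873-6169087 (BDGP6, the Release 6 assembly) and has 6 annotated transcripts. H3K27ac covered 33.9% of its region at day 10 and 28.9% at day 50, in 50 and 47 peaks, the largest difference in H3K27ac among the 8 genes. H3K4me1 covered 30.0% and 28.9%, in 55 and 54 peaks, so the difference lay mainly in the acetylation. Divided into 17 windows of 5 kb from the lower-coordinate end, the region had fewer H3K27ac-covered bases at day 50 in 14 windows and more in 1. The differences of these 14 windows summed to -4220 bp and were uneven, with -643 bp in the window 29 to 34 kb from that end. The largest single step, -1143 bp, lay 34 to 39 kb from that end. There 1296 covered bp at day 10 stood against 153 at day 50, while H3K4me1 went from 1514 to 1800 bp. A 630-bp peak at 2R:6121858-6122487, with an authors' fold enrichment of 2.14, lay almost wholly in that window at day 10 and had no counterpart at day 50. Of the 8 day-10 H3K27ac peaks in EcR without a counterpart, the median fold was 2.29, below the 2.56 of the 42 with one.

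EcR also held one of the broadest acetylated stretches of the genome. At day 10 a single H3K27ac peak of 3896 bp ran over 2R:6102496-6106391, about 14.6 kb inside the gene from its lower-coordinate end, and ranked 7 among 26694 peaks by width. At day 50 the same stretch was divided among 3 peaks that still covered 3751 of those bases, and the widest of them, 3080 bp, ranked 10 of 25432. The stretch thus stayed acetylated at both ages, and the window around it held 4716 covered bp at day 10 and 4627 at day 50. The strongest H3K27ac peak of EcR at day 50 lay elsewhere, at 2R:6158009-6159445, 9.64 kb from the higher-coordinate end, with a fold of 5.15.

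usp encodes Ultraspiracle, the fly counterpart of the vertebrate retinoid X receptor and the obligate partner of EcR. It lies at X:2038798-2042311 and is by far the shortest of the 8 genes. H3K4me1 covered 22.6% of its region at day 10 in 3 peaks and 22.5% at day 50 in 2, and H3K27ac covered 26.1% in 4 peaks and 23.5% in 3. The differences amounted to -8 bp of H3K4me1 and -145 bp of H3K27ac, and both turned positive with either stricter peak threshold or wider flanks, and stayed negative with equal numbers of peaks and for the gene body alone. The 2 marks occupied separate places: only 14.4% of the acetylated bases at day 10 and 18.0% at day 50 lay inside H3K4me1 peaks. A 420-bp H3K27ac peak, X:2041833-2042252, sat 0.059 kb from the higher-coordinate gene end with a fold of 4.93 at day 50, where no H3K4me1 peak was called within 500 bp. All of the usp region lies within that of Actn, the alpha-actinin gene, and 44.3% of it within that of CG4313, so these peaks cannot be assigned to usp alone.

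br, the Broad-Complex gene, encodes a family of BTB zinc finger factors that specify the pupal stage, from 16 annotated transcripts at X:1575132-1664869. H3K4me1 covered 17.7% of its region at day 10 and 14.7% at day 50, in 43 and 33 peaks. H3K27ac covered 3.07% and 3.95%, in 7 and 9 peaks. Both shares were the lowest of the 8 genes at both ages, and the H3K27ac share by a wide margin. Of its 19 windows, 15 had no H3K27ac peak at either age, and only 14.4% and 21.7% of its H3K4me1-covered bases were also acetylated. Its H3K27ac share at day 10 exceeded that of 37.6% of gene regions of 20 kb or more, whereas for the other 5 long genes this figure ran from 67.1% (Eip75B) to 98.7% (Eip74EF).

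Most of the acetylation in br was concentrated near the middle of the gene. At day 10 the strongest and widest H3K4me1 peak, X:1619268-1621114 (1847 bp, fold 4.60), overlapped a 1167-bp H3K27ac peak, X:1619907-1621073 (fold 3.34). At day 50 that H3K27ac peak spanned 1502 bp, X:1619585-1621086, with a fold of 4.18, and it was the strongest of the gene at that age. The 5-kb window that contains it held 1851 H3K27ac-covered bp at day 10 and 2305 at day 50, while H3K4me1 there went from 3696 to 3046 bp. A second acetylated place, within 500 bp of the higher-coordinate end, had folds of 3.96 and 3.59. Between these, a stretch of 24.9 kb starting 65.0 kb from the lower-coordinate end, 27.2% of the region, had no peak of either mark at either age. The H3K4me1 peaks of br were also the least shared between ages of the 8 genes: 25 of 43 day-10 peaks, 58.1% (95% interval 42.1 to 73.0), were overlapped at day 50. The br region lies entirely within that of Mur2B, a mucin-related gene, which shares all of these peaks. A further 1.98% of it is also shared with the region of dor.

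Eip74EF encodes ETS-domain transcription factors and lies at 3L:17558672-17619325. It was the most densely marked of the long genes. H3K4me1 covered 43.1% of its region at day 10 and 42.4% at day 50, in 63 and 66 peaks, and H3K27ac covered 39.1% and 37.4%, in 52 and 47 peaks. These shares exceeded those of 98.9% and 98.7% of regions of 20 kb or more at day 10. It was the only one of the 8 genes with more H3K4me1 peaks at day 50 than at day 10. Bases under both marks made up 31.1% of the region at day 10 and 31.2% at day 50, the largest overlap in the set. All 47 H3K27ac peaks of day 50 overlapped a day-10 peak.

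At the higher-coordinate end of Eip74EF, H3K27ac peaks within 500 bp had folds of 5.28 at day 10 and 5.08 at day 50, the highest at any end of the 8 genes. The region overlaps those of CycT (1.78%) and Vps60 (1.92%), so peaks near its ends may not be those of Eip74EF alone. The strongest H3K27ac peak at day 50 was internal, 3L:17575963-17577213, with a fold of 5.53. At day 10 a peak of 2025 bp, 3L:17575202-17577226, had covered that place, and 1941 of its bases remained under 2 peaks at day 50. The window 34 to 39 kb from the lower-coordinate end had the largest deficit in H3K27ac, from 2531 to 1848 bp, and that from 54 to 59 kb had the largest in H3K4me1, from 2112 to 1540 bp.

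Eip75B encodes the nuclear receptor E75, which binds haem and opposes the receptor Hr3, and is the longest of the 8 genes, at 3L:17950953-18064696. H3K4me1 covered 30.4% of its region at day 10 and 27.4% at day 50, in 83 and 72 peaks, whereas H3K27ac covered 11.03% and 10.98%, in 30 and 34 peaks. The marks thus differed in this gene as in br: 35.2 and 31.7 kb lay under H3K4me1 against 12.8 and 12.7 kb under H3K27ac. H3K4me1 was lower at day 50 in 17 of 24 windows and higher in 6, while H3K27ac was lower in 7, higher in 7 and absent at both ages in 10. The longest of the stretches without acetylation at either age ran for 25.0 kb, from 14.2 to 39.1 kb, and 4 windows of 5 kb inside it held between 1077 and 3481 bp of H3K4me1.

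Eip75B held the strongest H3K4me1 peaks of the 8 genes. A peak at 3L:18033323-18034153 had a fold of 5.52 at day 10, rank 6 of 43863, and one at 3L:18033350-18034154 had 5.66 at day 50, rank 3 of 41837. Its strongest H3K27ac peak lay near the lower-coordinate end, where a 2169-bp peak, 3L:17955697-17957865, had a fold of 6.21 at day 10, rank 9 of 26694. At day 50 it was divided into 2 peaks, 3L:17955501-17956582 and 3L:17956641-17957856, with folds of 4.79 and 4.502. They covered 2102 of the 2169 bp, and the window as a whole went from 3218 to 3575 covered bp. Eip75B was the only gene of the 8 with peaks of both marks within 500 bp of both ends at both ages.

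**Figure D3:**
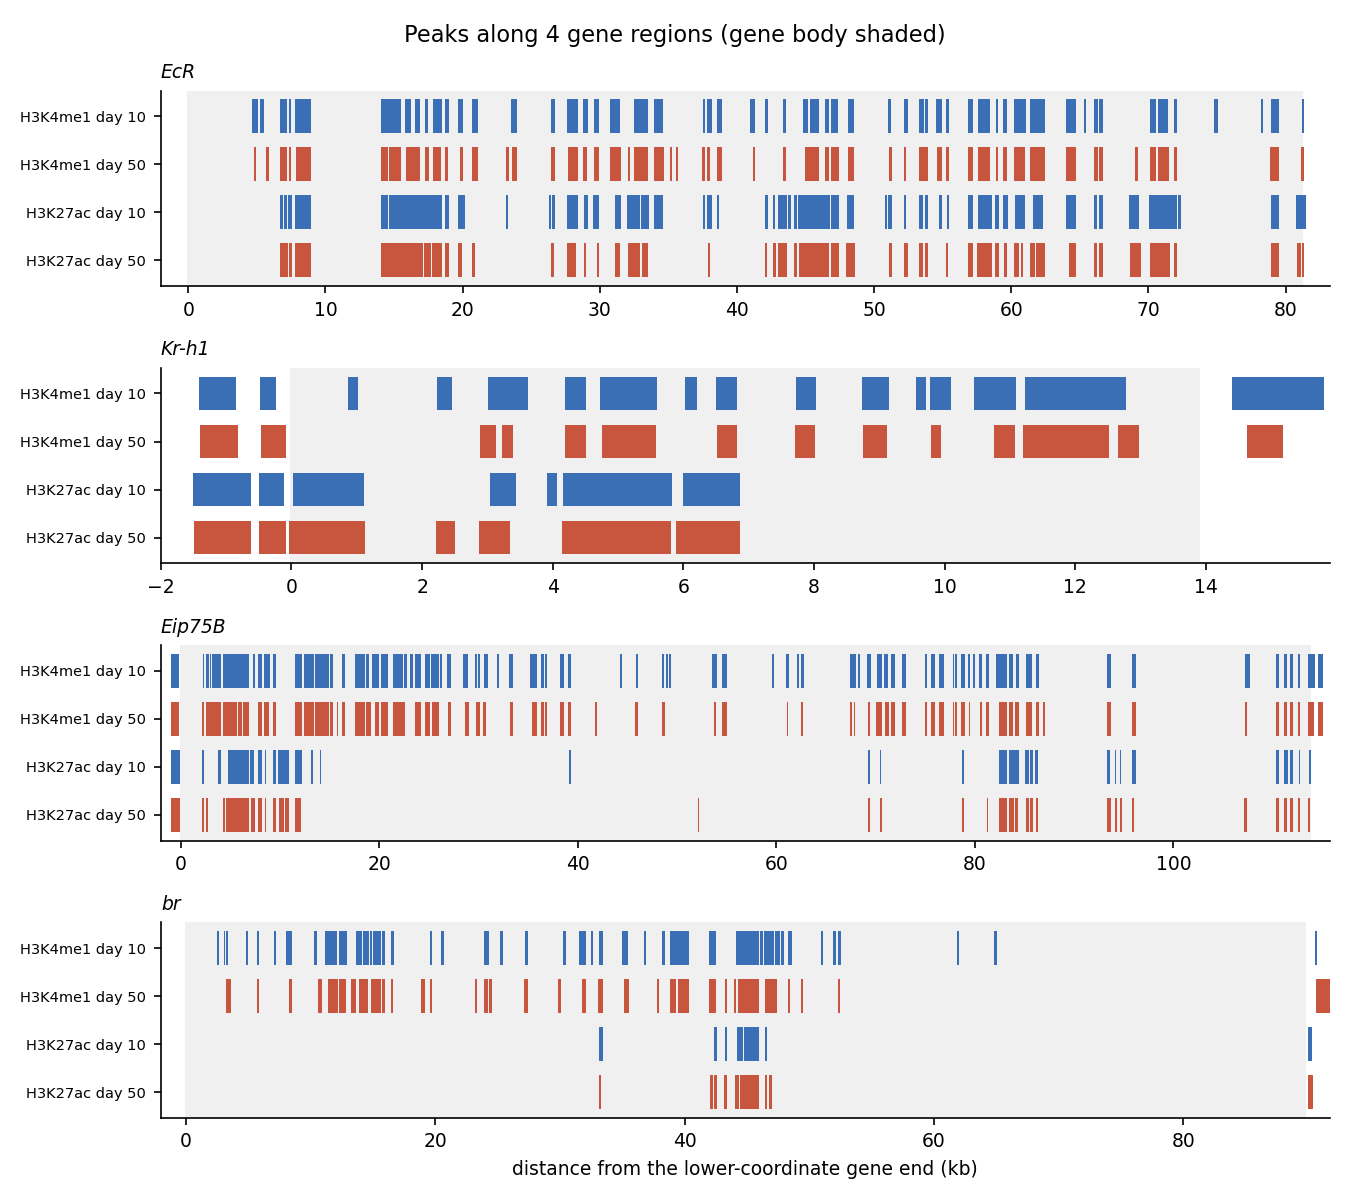
Peaks along EcR, Kr-h1, Eip75B and br, with distance from the lower-coordinate gene end (kb) on the horizontal axis, 1 row for each mark and age (blue day 10, red day 50) and the gene body shaded. EcR has peaks of both marks along most of its length, Eip75B and br have long stretches with H3K4me1 alone, and in br the last stretch before the higher-coordinate end has no peaks for 24.9 kb.

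ftz-f1 encodes a nuclear receptor that gives prepupal tissues the competence to respond to the next ecdysone pulse, and lies at 3L:18750607-18801309. H3K4me1 covered 23.4% of its region at day 10 and 22.2% at day 50, in 34 and 30 peaks, and H3K27ac covered 18.5% and 17.0%, in 31 and 27 peaks. The balance between windows was even for H3K27ac, with 5 lower and 5 higher of 11. The largest deficit lay 4 to 9 kb from the lower-coordinate end, from 2506 to 1832 bp, and the largest excess 29 to 34 kb from it, from 823 to 1248 bp. That latter window contains the strongest H3K4me1 peak of the gene at day 50, 3L:18781585-18782108, with a fold of 5.54 and rank 10 of 41837. The share of acetylated bases that lay inside H3K4me1 peaks was 68.1% at day 10 and 80.4% at day 50, the largest difference of this kind in the set. The H3K27ac difference of ftz-f1 was -1.57 points with all peaks, 1.66 with a -log10 q of at least 5 and -0.81 with the stronger 50% of each list, where its H3K4me1 difference was 0.75.

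Eip93F encodes E93, a pipsqueak-domain factor that directs the change from pupal to adult development, and lies at 3R:21949114-22014539. H3K4me1 covered 29.9% of its region at day 10 and 25.3% at day 50, in 49 and 45 peaks, and H3K27ac covered 30.3% and 26.9%, in 62 and 56 peaks. Together with EcR it was thus among the genes with the largest differences in H3K27ac, and among the long genes it had the largest in H3K4me1. H3K4me1 was lower in 11 of 14 windows and higher in 1, and H3K27ac was lower in 8 and higher in 3. The largest steps were 29 to 34 kb from the lower-coordinate end for H3K4me1, from 1026 to 452 bp, and 39 to 44 kb for H3K27ac, from 1919 to 1176 bp. The first window, up to 4 kb inside the gene, which contains the only marked gene end, were close to level, at 2166 and 2177 bp of H3K4me1 and 2933 and 2971 bp of H3K27ac. All 45 H3K4me1 peaks of day 50 overlapped a day-10 peak, so no H3K4me1 peak of day 50 lay at a place unmarked at day 10. The last 8.94 kb of the region at the higher-coordinate end had no peak of either mark at either age.

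**Figure D4:**
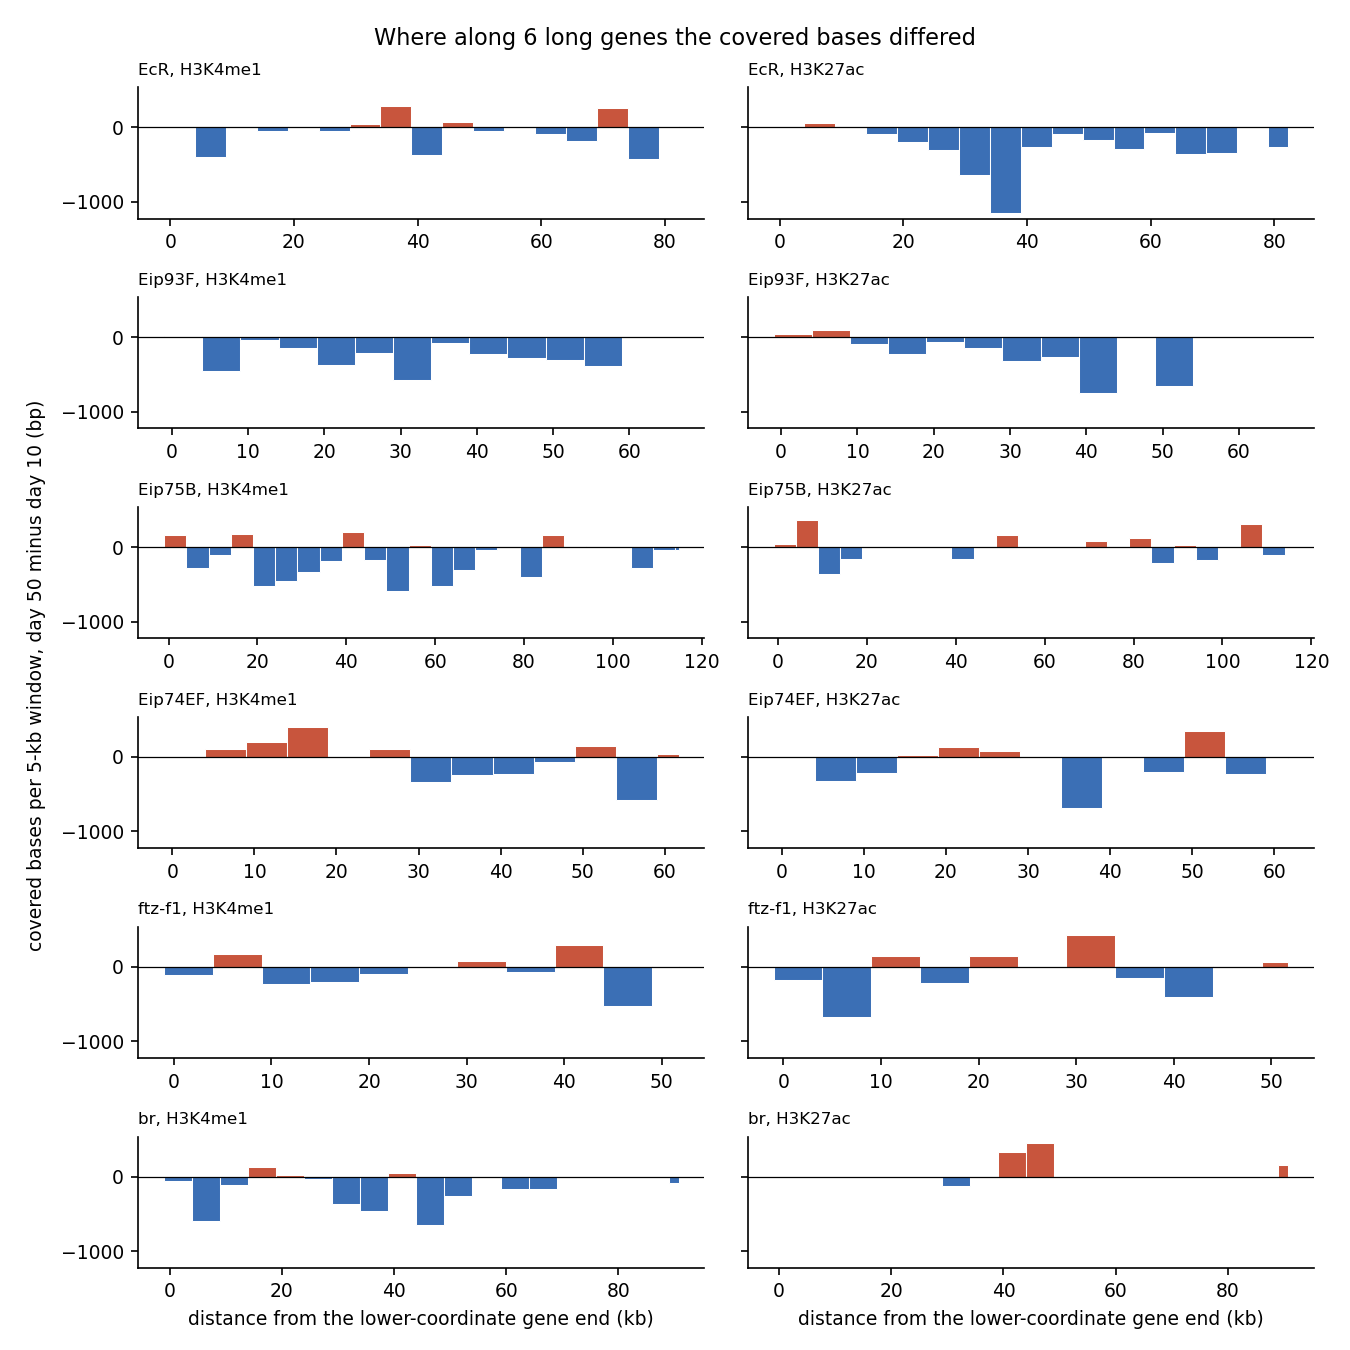
Covered bases per 5-kb window, day 50 minus day 10 (bp, vertical axis), along the 6 genes with regions of 20 kb or more (distance from the lower-coordinate gene end in kb, horizontal axis), H3K4me1 on the left and H3K27ac on the right; red bars are windows with more covered bases at day 50 and blue bars windows with fewer. In EcR 14 of 17 H3K27ac windows are below zero, and in Eip93F 11 of 14 H3K4me1 windows are.

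Kr-h1 encodes a zinc finger factor that is the main direct target of the juvenile hormone receptors, and lies at 2L:6082603-6096498. As in br, the marks differed between ages in opposite directions. H3K4me1 covered 43.9% of its region at day 10 and 34.4% at day 50, in 16 and 14 peaks, and H3K27ac covered 31.3% and 33.7%, in 7 peaks at each age. H3K4me1 was lower in all 4 windows of the region. The largest step was 9 to 14 kb from the lower-coordinate end, from 2822 to 2226 bp, in a part of the gene with no H3K27ac at either age. H3K27ac lay within the first 6.87 kb and was higher by 359 bp in the first window, from 2342 to 2701 bp. That window gained a 291-bp peak called at day 50 alone, with a fold of 2.46. Its widest peak had a fold of 4.07 at day 10 (2L:6082624-6083710) and 2.39 at day 50 (2L:6082565-6083722). All 14 H3K4me1 peaks of day 50 overlapped a day-10 peak, and 4 of the 16 of day 10 had no counterpart. Kr-h1 shares 44.6% of its region with CG45075 and 11.3% with CG9175.

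The strongest H3K27ac peak of Kr-h1 was among the strongest of the genome at both ages. At 2L:6086756-6088433 it had a fold of 5.49 at day 10, rank 44 of 26694, and at 2L:6086749-6088414 a fold of 6.91 at day 50, rank 5 of 25432. Its width was nearly the same, 1678 and 1666 bp. Folds come from separately processed lists, so the ranks do not measure a change. When each list was restricted to its 50% of peaks with the highest -log10 q, the H3K27ac difference of Kr-h1 turned from 2.36 to -6.24 points. That restriction amounts to a -log10 q of about 7.13 at day 10 and 8.47 at day 50. The day-50 peak 2L:6082565-6083722, of 1158 bp and with a -log10 q of 7.71, fell below its limit. Its day-10 counterpart, with 19.4, did not. With a common threshold of 5 the difference was 3.33 points.

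Over the 8 regions together, 494.89 kb with overlapping bases counted once, H3K4me1 covered 144.11 kb at day 10 and 131.22 kb at day 50, and H3K27ac covered 104.92 and 97.47 kb. The number of H3K4me1 peaks was lower at day 50 in 7 genes, and that of H3K27ac peaks was lower in 5, higher in 2 and equal in 1. Over all gene regions the peaks were also fewer at day 50, 38487 and 37208 for H3K4me1 and 24531 and 23766 for H3K27ac. Their covered bases went from 16126 to 15749 kb and from 8477 to 8387 kb. The share of all genes with fewer peaks was not counted. Most places in the 8 regions were marked at both ages. Of the day-10 H3K4me1 peaks 84.7% (95% interval 80.4 to 88.3) were overlapped at day 50, and of the day-50 peaks 92.1% (88.5 to 94.8) at day 10. For H3K27ac these shares were 85.2% (80.1 to 89.4) and 93.5% (89.5 to 96.3). The same shares over all gene regions were 81.1% and 83.8% for H3K4me1, and 77.4% and 80.0% for H3K27ac. The 53 H3K4me1 peaks seen at day 10 alone had a median fold of 2.42, against 3.11 for the 293 seen at both ages, and the 36 H3K27ac peaks at day 10 alone had 2.15 against 2.79. Peaks of a single age were thus the weaker ones, as they were over all gene regions (2.19 against 2.67, and 2.15 against 2.66).

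Inside the 8 regions, 72.8% of the H3K27ac-covered bases at day 10 and 74.6% at day 50 lay in H3K4me1 peaks, against 56.4% and 55.7% over all gene regions. In the other direction, 53.0% and 55.4% of the H3K4me1-covered bases lay in H3K27ac peaks, against 29.6% and 29.7%. The share of H3K27ac-covered bases in H3K4me1 peaks was above the pooled value of all gene regions in 6 genes at each age, with usp and Kr-h1 below it. How many of all genes exceed that pooled value was not counted, so the 6 of 8 has no background beside it. EcR, Eip74EF and Eip93F had most of both marks in common, with 75.8%, 73.6% and 70.3% of their H3K4me1-covered bases acetylated at day 50, whereas usp, br and Eip75B had 18.8%, 21.7% and 32.2%. A region with more bases under 1 mark overlaps more with the other for that reason alone, which was not allowed for.

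**Figure D5:**
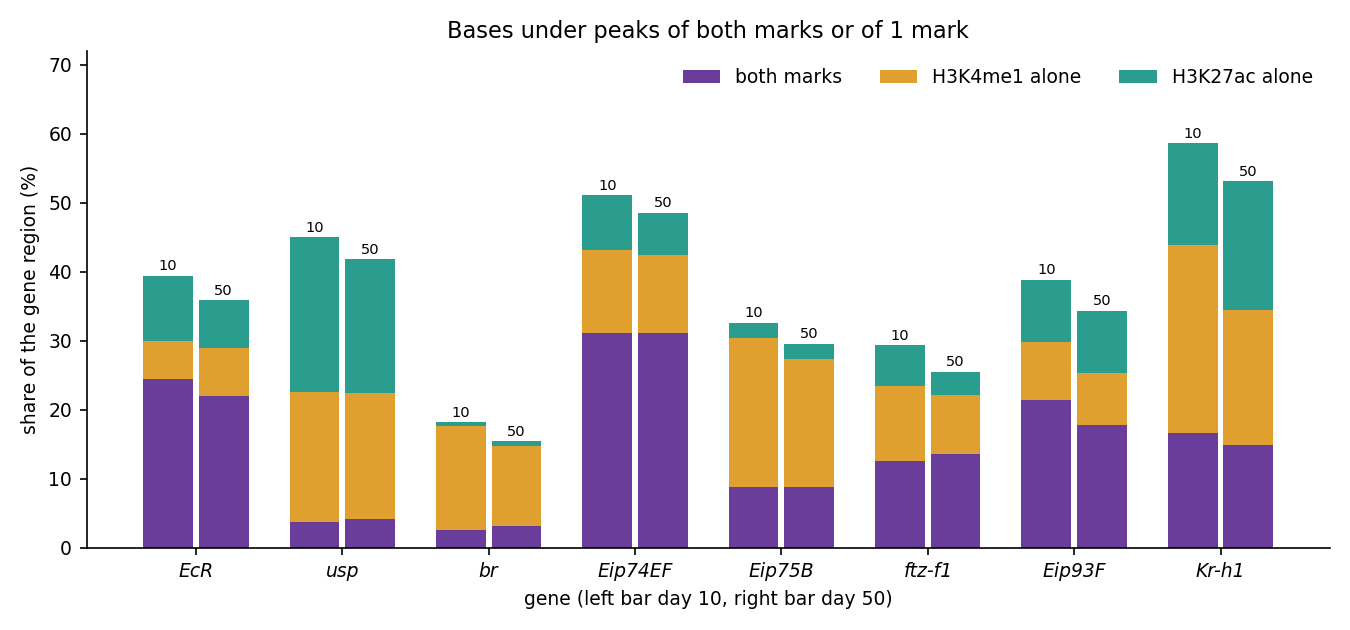
Share of each gene region (percent, vertical axis) under peaks of both marks (purple), H3K4me1 alone (yellow) and H3K27ac alone (green), with day 10 as the left and day 50 as the right bar of each gene. Eip74EF has the most bases under both marks, 31.1% and 31.2%, and br the fewest among the long genes, 2.54% and 3.19%.

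The same gene ends were marked at both ages. The gene table gives neither strand nor exons, so starts and ends of transcription, introns and exons could not be told apart, and no sequence was used. Of the 16 gene ends, 9 had an H3K27ac peak within 500 bp at both ages and 7 at neither, and 7 had an H3K4me1 peak at both ages and 9 at neither. No end had a peak at a single age in either mark. Among the 27892 ends of all protein-coding genes, 32.8% had H3K27ac at both ages, 61.2% at neither and 6.00% at a single age. For H3K4me1 these shares were 37.6%, 52.2% and 10.3%. A peak at a single age was thus uncommon over all gene ends as well. Each of the 8 genes had at least 1 acetylated end, as did 52.0% of all genes and 56.2% of those with regions of 20 kb or more. All 8 regions overlap those of other genes. In EcR, Eip74EF, Eip75B, ftz-f1 and Eip93F a neighbour shares 0.22% (Idh3b in Eip93F) to 3.74% (CG14589 in EcR) of the region. Which ends the neighbours reach was not examined, so peaks at ends cannot be assigned to the 8 genes alone. The acetylated end was the lower-coordinate end in Eip93F and Kr-h1, both ends in Eip75B and the higher-coordinate end in EcR, usp, br, Eip74EF and ftz-f1. The ends of usp and br with H3K27ac had no H3K4me1 peak, and neither did that of ftz-f1.

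The genes nearest to each of the 8 in the 4 covered shares, among non-overlapping genes of similar length (within a factor of 2), were found by Euclidean distance in percentage points over the 4 lists. They were Glut4EF for EcR (4.56 points), RpS13 for usp (3.01), pdm3 for br (1.31), tou for Eip74EF (7.23), ush for Eip75B (3.67), E2f1 for ftz-f1 (1.58), siz for Eip93F (3.07) and Swip-1 for Kr-h1 (3.12). Eip74EF had no gene within 5 points, and EcR and Kr-h1 had 1 each. Within that distance lay 16 genes each for usp and ftz-f1, 12 for br, 4 for Eip93F and 2 for Eip75B. The values of pdm3, nearest to br, were 16.8% and 15.1% in H3K4me1 and 2.74% and 3.19% in H3K27ac.

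Other genes of the same hormone pathways differed in both directions. Of 11 genes that make, import or degrade ecdysone, 4 had no H3K4me1 peak and 8 no H3K27ac peak at either age, against 23.6% and 34.2% of all gene regions. Of the rest, 4 were higher and 3 lower at day 50 in H3K4me1 and 2 higher and 1 lower in H3K27ac. Among all gene regions with a peak, 51.7% were higher in H3K4me1 and 71.6% in H3K27ac, so these counts do not set the list apart. spo, a cytochrome P450 of ecdysone synthesis, had no H3K4me1 peak at day 10 and 7.84% at day 50, and sro, a short-chain dehydrogenase of the same pathway, had 26.4% and 20.4%. Cyp18a1, which inactivates ecdysteroids, was higher in both marks at day 50, from 0% to 4.83% in H3K4me1 and from 2.78% to 7.18% in H3K27ac. H3K27ac covered 16.1% and 9.62% of GstE14, a glutathione transferase needed for ecdysone synthesis, and 1.59% and 2.18% of Oatp74D, the ecdysone importer. In the short regions few bases decide the value: those of spo at day 50 amounted to 352 bp.

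Of 26 further partners and response genes of the ecdysone receptor, 7 were higher and 14 lower in H3K4me1, with a median difference of -1.97 points among the 21 with a peak, and 14 were higher and 7 lower in H3K27ac, with a median of 1.33. The larger number of higher genes in H3K27ac was also the pattern over all gene regions, 71.6% of which were higher, with a median of 1.73 points, while 48% were lower in H3K4me1. Length has again to be read beside the H3K4me1 count. All genes of this list with an H3K4me1 peak and a region of at least 20 kb were lower in that mark. They were tai, Hr3, Hr4, Hr38, Hr39, Eip78C, Eip63E, E23 and vri, named here outside the rule of the 3 largest differences. Of all regions of that length with a peak, 76.7% were lower. The shorter genes of the list went in both directions. Among them hid, with a region of 19897 bp just under that length, went from 17.5% to 20.4% in H3K4me1. The apoptosis gene rpr went from 23.6% to 8.86% in H3K4me1, 684 to 257 bp. ImpL2, a secreted binding protein of insulin-like peptides, went from 9.77% to 17.4%, and rig, a cofactor of ecdysone receptor signalling, from 22.1% to 27.6%. In H3K27ac, DopEcR, a membrane receptor for dopamine and ecdysteroids, had 39.5% at day 10 and 31.4% at day 50, the same direction as EcR. Cth, the cystathionine gamma-lyase gene, had 12.1% and 21.8%, and Ldh, lactate dehydrogenase, 2.63% and 9.73%.

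Of 15 genes of juvenile hormone synthesis, turnover and reception, 8 were higher and 6 lower in H3K4me1, with a median difference of 0.25 points among the 14 with a peak, and 8 were higher and 3 lower in H3K27ac, with a median of 4.37. Over all gene regions with a peak, 51.7% were higher in H3K4me1 and 71.6% in H3K27ac, with medians of 0.15 and 1.73 points. Met, a receptor of the hormone and activator of Kr-h1, had 16.8% of its region under H3K27ac at day 10 and 28.2% at day 50, 1201 and 2016 bp, and 31.7% and 31.9% under H3K4me1. gce, its paralogue, named here after its values were seen, had 23.4% and 27.7% under H3K27ac, and 21.6% and 20.0% under H3K4me1. Both receptors were thus higher in H3K27ac, as were 71.6% of all gene regions and, with all peaks counted, Kr-h1. Jheh1 and Jheh2, neighbouring epoxide hydrolase genes whose products degrade the hormone and whose regions overlap, went from 4.02% to 31.4% and from 18.8% to 28.9% in H3K4me1, whereas their H3K27ac was 17.5% and 15.7%, and 25.5% and 22.5%. jhamt, the methyltransferase of the last steps of synthesis, had no H3K4me1 peak at day 10 and 8.58% at day 50, in 269 bp. The hormone-inducible genes JhI-21, an amino acid transporter, and RNaseZ, a tRNA-processing nuclease, had 7.17% and 20.7%, and 15.2% and 22.5%, under H3K27ac.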

How the data were processed

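H3K4me1 and H3K27ac were profiled by ChIP-seq in heads of male flies at day 10 and day 50. Per the labels, each mark had 2 ChIP and 2 input replicates at either age, pooled into 1 deposited list per mark and age according to the peak names. Software listed in the submitters' processing notes, without roles, is MACS2 2.1.1, STAR 2.5.3a, deepTools, Trim Galore and FastQC, and the build is BDGP6. The authors deposited for each peak a score, a fold enrichment (a ratio over local background) and a -log10 q, all kept within a list; their p column was not used. The lowest deposited -log10 q was 1.30 and the narrowest peak 147 bp wide. Deeper libraries pass a q threshold at more places, so covered shares can differ between ages through depth, which is unknown.

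Gene coordinates were those of RefSeq on Release 6, with no strand, exons or sequence. Promoters, motifs and proteins were not analysed here. For each of 13946 gene regions (gene body with 1000 bp on both sides) the bases under peaks were counted with Python 3.11.15, pandas 2.3.3 and numpy 2.4.6, and the counting was tested on simulated data. Peaks were shared if they overlapped by at least 1 base, with exact (Clopper-Pearson) 95% intervals from scipy 1.17.1. Without replicate lists there was no test, and a difference was described by its size beside the same counts over all genes and over regions of at least 20 kb. The genes, the pathway lists and the markers (neurons, photoreceptors, glia, fat body, testis) were chosen with earlier results of these data known. From each pathway list and mark, the 3 genes with the largest difference were named. Alternatives were stricter peak thresholds, equal numbers of peaks, other flanks, a stricter overlap and leaving out br and usp.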

Additional observations from a re-analysis of the deposited data

How the results depend on the processing

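No paired analysis was possible because each list pools both replicates of a mark and age, and leaving out a replicate could not be run for the same reason. The summed difference in covered bases over the 8 regions, day 50 minus day 10, stayed negative under every alternative run. For H3K4me1 it was -12894 bp, and -12610 with peaks of -log10 q of at least 5, -13823 with the upper 50% of each list, -10816 with equal numbers of peaks, -12882 for gene bodies alone, -14564 with flanks of 5000 bp and -10141 without br and usp. For H3K27ac it was -7445 bp, and in the same order -4608, -9606, -5705, -7670, -6167 and -8110. Leaving out br and usp, which lie inside other genes' regions, was chosen after seeing the data.

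Genes with a higher H3K4me1 share numbered 0, but 1 at -log10 q of at least 5, 2 with the upper 50% of peaks and 1 with 5000-bp flanks. Of all gene regions 50.7%, 48.5% and 53.7% were higher in H3K4me1 in these 3 settings, and of the long ones 25.1%, 27.4% and 27.1%. For H3K27ac, 2 were higher and 6 lower, also for gene bodies and with the upper 50% of peaks, where usp stood in place of Kr-h1 among the higher. They were 3 and 5 with equal numbers or 5000-bp flanks, and 5 and 3 at -log10 q of at least 5. At that threshold 72.6% of all gene regions were higher in H3K27ac and 59.6% of the long ones lower. In the other settings 67.9% (upper 50%) to 72.9% (equal numbers) of all gene regions were higher. Of the long ones, 31.0% (gene bodies) to 39.5% (5000-bp flanks) were higher. Without br and usp, 1 gene was higher in H3K27ac. The differences that reversed, in points, were those of usp in H3K4me1 (4.06 at the q threshold, 0.45 with the upper 50%, 3.29 with 5000-bp flanks) and H3K27ac (0.60, 0.60 and 0.36). The others were Eip75B in H3K27ac (0.31 at the q threshold, 0.40 with equal numbers), ftz-f1 in H3K27ac (1.66 at the q threshold) and H3K4me1 (0.75 with the upper 50%), and Kr-h1 in H3K27ac (-6.24 with the upper 50%, but 3.33 at the q threshold). ftz-f1 in H3K27ac was -0.81 with the upper 50%. The cause was not tested. EcR, br, Eip74EF and Eip93F kept their directions in both marks.

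Day-10 peaks overlapped at day 50 fell from 84.7% and 85.2% to 76.9% and 76.8% with the upper 50%, and to 73.4% and 67.1% where peaks had to share 50% of their length; without br and usp the H3K4me1 figure was 88.3%. H3K27ac bases inside H3K4me1 peaks at day 10 were 71.3% at the q threshold, 66.6% with the upper 50%, 71.7% with equal numbers, 73.1% for gene bodies, 71.5% with 5000-bp flanks and 73.4% without br and usp. At day 50 they were 70.5%, 70.2%, 74.6%, 74.9%, 72.2% and 75.1%.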
